A study of Mus musculus with 8 samples.

Results

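Wnt ligands, their receptors, R-spondins and the genes that release the ligands were examined in the flat bones of the newborn mouse skull roof. They are 44 genes of 49315 in the deposited table: 19 Wnt ligands, 10 frizzled receptors, the co-receptors Lrp4, Lrp5 and Lrp6, the receptors Ror1, Ror2 and Ryk, 4 R-spondins, 3 LGR receptors, and Porcn and Wls, which prepare and carry the ligands out of the cell. The rule goes by gene symbol and family, and all 44 had a row. Bulk RNA sequencing had been made from calvaria, with 4 libraries of Girk3 knockout mice (Girk3-/-, here KO) and 4 libraries of wild-type mice (WT). The mice were all female, C57BL6 and 2 to 3 days old. The labels give a deletion of Girk3 in the whole animal, with no cell type singled out and no treatment in either group. Whether any library pooled several animals is not given in the sources used here. The comparison asks how loss of Girk3, a potassium channel subunit in a study of bone mass, bears on transcripts of this bone.

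Wnt proteins are secreted lipid-modified signals. The acyltransferase encoded by Porcn attaches a lipid to each ligand and the carrier encoded by Wls takes it to the cell surface. There the ligand binds a frizzled receptor, together with Lrp5 or Lrp6 in the canonical branch, where beta-catenin accumulates and turns on target genes; ligands that bind Ror or Ryk receptors mostly act without beta-catenin. R-spondins bind LGR receptors and keep frizzled receptors on the membrane by removing the ubiquitin ligases that clear them. In the skull, canonical signalling favours osteoblast formation, and human LRP5 is known for variants that raise or lower bone mass.

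Library totals ran from 35392465 to 54290034 counts. Expression is given as CPM, the counts of a gene scaled to a library of 1000000 counts. The bone identity of the tissue was plain: 10 osteoblast markers summed to 146300.0 to 192342 CPM in KO libraries and 168766 to 187298 CPM in WT libraries. Kcnj9, which encodes Girk3, held 2, 5, 7 and 9 counts in KO libraries and 0, 0, 1 and 4 counts in WT libraries. It was at the limit of detection in both and not lower in KO, so it does not check the labels, and KO here means the libraries labelled so. The summed level of 15 skeletal muscle markers was 74.2 and 200.2 CPM in KO replicates 2 and 3 and 35.9 CPM in WT replicate 3, against 863 to 3334 CPM in the other libraries; these 3 are called muscle-poor here. KO replicate 4 had the lowest total of all libraries, yet 28520 genes were detected in it, where the other 7 libraries ranged between 24545 and 25729. Of 8 macrophage markers 2 were lower in KO and none higher at an edgeR adjusted p under 0.05, and DESeq2 called 5. All 8 had a log2 change below 0, 6 with an unadjusted edgeR p below 0.05. The sum of the macrophage markers was 456 to 529.7 CPM in KO libraries and 582 to 759 CPM in WT libraries. Of 8 osteoclast markers edgeR called none and DESeq2 called 5; all 8 had a log2 change below 0, 7 with an unadjusted edgeR p below 0.05. Their sum was 3957 to 6024 CPM in KO libraries and 5673 to 8417 CPM in WT libraries. Over all tested genes edgeR called 1.32%, and 17.4% had an unadjusted edgeR p below 0.05. DESeq2 called 7.06% of the genes to which it gave an adjusted p.

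The ligands share the site that makes them Wnts. The coding sequence of all 19, read from GENCODE release M21 on GRCm38, held a single in-frame match, 24 bases long, to the conserved stretch around the serine that Porcn acylates. It is shown here for the 4 ligands of highest level and for Wnt10a, the closest relative of Wnt10b, 5′ to 3′ on the coding strand, with the serine codon in capitals.
Wnt10b: tgccatggaacgTCAggcagctgc
Wnt10a: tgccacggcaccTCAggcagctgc
Wnt5b: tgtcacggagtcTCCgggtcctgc
Wnt5a: tgtcatggagtgTCTggctcctgt
Wnt9a: tgccatggtgtgTCTggctcctgc
The stretches lay at chr15:98772878-98772901 in Wnt10b, chr1:74803156-74803179 in Wnt10a, chr6:119433800-119433823 in Wnt5b, chr14:28522515-28522538 in Wnt5a and chr11:59330926-59330949 in Wnt9a, each within an exon. The serine codon differed among these genes, being TCA in Wnt10b and Wnt10a, TCC in Wnt5b and TCT in Wnt5a and Wnt9a.

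Newborn calvaria expressed a small set of ligands and nearly every receptor. Levels between genes are given as CPM per kilobase of exon, the union of all annotated exons of a gene. Of the 44 genes, 10 averaged at least 10 CPM per kb over the 8 libraries, 16 averaged from 1 to 10 and 18 lay below 1. Per kb of all exons Ryk stood highest, at 36.4 ± 2.01 CPM per kb in KO and 39.2 ± 1.31 CPM per kb in WT (SD, n = 4 each), above 94.7% of all tested genes, and Wls was next, at 26.5 ± 1.56 CPM per kb in KO and 27.8 ± 1.13 CPM per kb in WT. Per kb of the longest transcript the order of these 2 turned round, with Wls at 65.6 in KO and 68.7 in WT and Ryk at 53.8 in KO and 57.8 in WT. In CPM per kb, the frizzled receptors summed to 74.8 ± 4.44 in KO and 70.7 ± 1.71 in WT, the 19 ligands to 45.9 ± 5.97 in KO and 41.5 ± 0.858 in WT, the ROR and RYK receptors to 46.2 ± 2.06 in KO and 47.5 ± 1.11 in WT and the LRP co-receptors to 45.5 ± 3.40 in KO and 43.6 ± 5.02 in WT. The 4 R-spondins summed to 6.37 ± 0.653 in KO and 6.44 ± 0.313 in WT. Ligand transcripts were concentrated in 4 genes, since Wnt10b, Wnt5b, Wnt9a and Wnt5a made up 81.7% to 85.5% of the ligand sum in KO libraries and 81.8% to 84.0% in WT libraries.

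**Figure D1:**
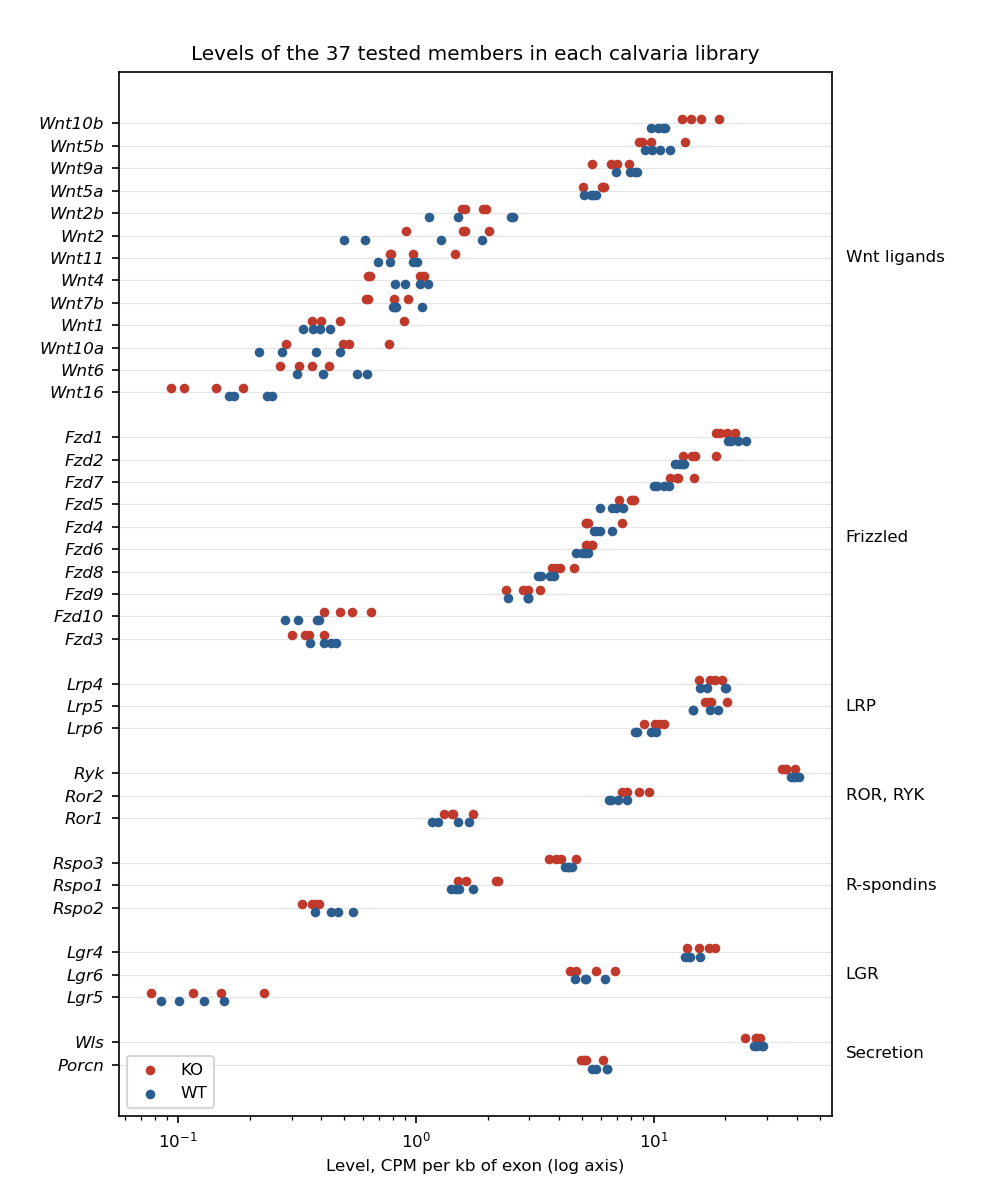
Level of each of the 37 members that passed the filter on low counts, as CPM per kb of exon on a log axis; each point is 1 library, KO (red) above WT (blue), grouped by role. Ryk and Wls lie furthest to the right, 4 ligands lie well above the other 9 shown, and the libraries of Wnt10b, Fzd7 and Fzd10 separate by genotype.

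Wnt10b rose in KO and no other member passed the test. Of the 44 genes, 37 passed the filter on low counts and entered edgeR's quasi-likelihood test over 17743 genes, where a call means a Benjamini-Hochberg adjusted p below 0.05. The test called 1 of the 37 (2.70%), against 1.32% of all tested genes (0.445% higher in KO and 0.874% lower), that is, a single gene. DESeq2 called 2 members, Wnt10b and Fzd7, and 7.06% of all genes to which it gave an adjusted p. The unadjusted p was below 0.05 for 8 of the 37 (21.6%), 7 of them higher and 1 lower in KO, against 17.4% of all genes. The 2 groups of libraries did not overlap for 3 members (8.11%), Wnt10b, Fzd7 and Fzd10, all higher in KO, against 10.6% of all genes (4.63% higher and 5.96% lower). The log2 change (KO over WT) was above 0 for 21 members and below 0 for 16, with a median of 0.08, against -0.000295 over all genes. For 23 of the 37 the 95% interval of the change lay within 1.5-fold in either direction.

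**Figure D2:**
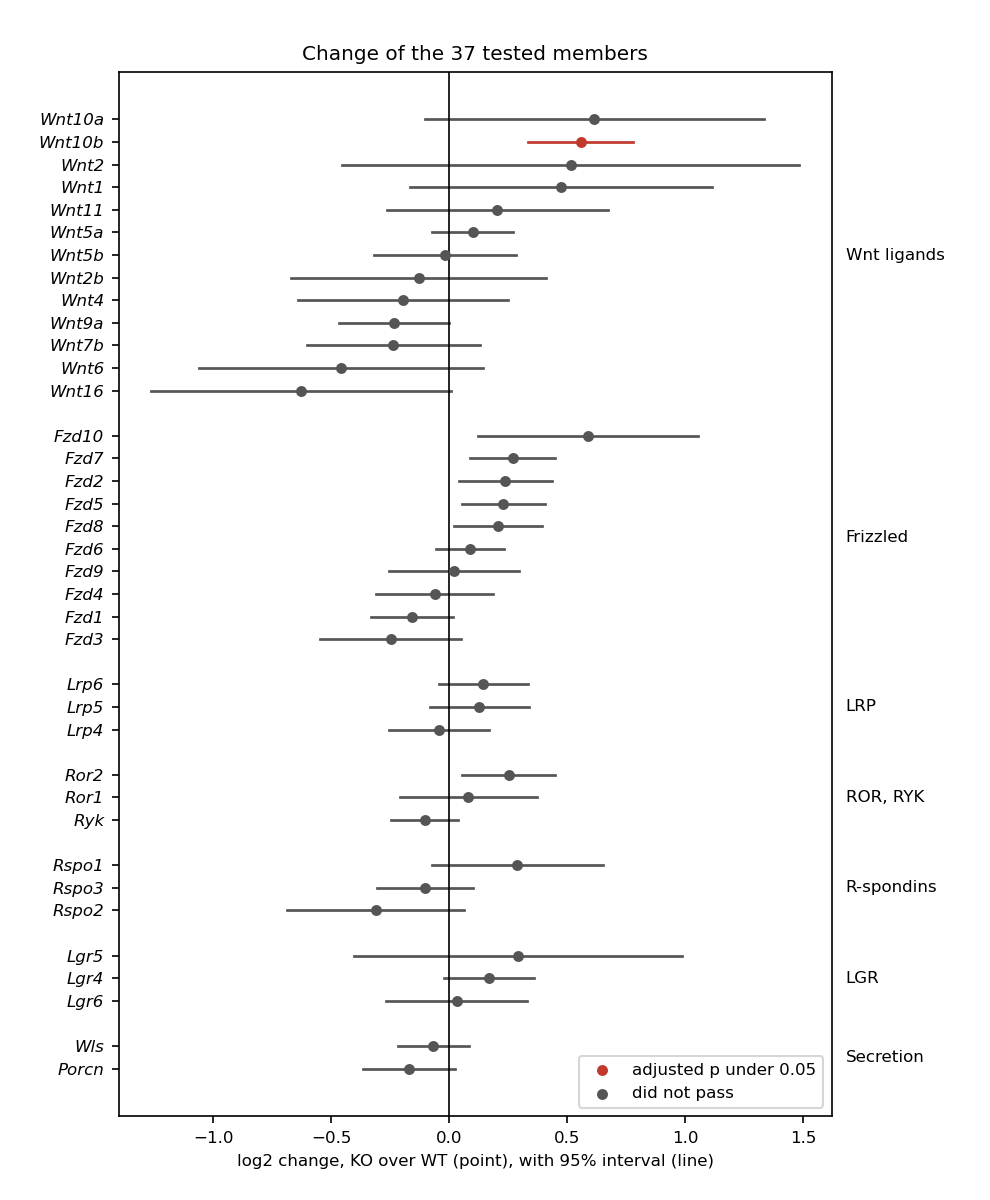
The log2 change, KO over WT, of each of the 37 tested members (point) with its 95% interval (line), grouped by role and ordered by size. Only Wnt10b, in red, passed at an adjusted p under 0.05; the widest intervals belong to Wnt2 and Wnt10a, ligands of low count.

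Wnt10b encodes a canonical ligand that in mice promotes osteoblast formation over fat cell formation, and loss of the gene lowers bone mass there. The gene (ENSMUSG00000022996, chromosome 15 from 98770712 to 98778150, minus strand, GRCm38/mm10) stood at 48.7, 44.6, 53.9 and 64.1 CPM in the KO libraries, against 37.1, 33.0, 35.4 and 38.0 CPM in the WT libraries. Each KO library lay above each WT library; KO replicate 4 was the highest of the 8 and KO replicate 2 the closest to WT. The means were 52.8 ± 8.42 CPM in KO and 35.9 ± 2.21 CPM in WT (SD, n = 4 each), a log2 change of 0.56 ± 0.103 (SE), or 1.47-fold with a 95% interval of 1.26 to 1.72 (edgeR adjusted p = 0.0231). In bulk tissue more cells that make a transcript and more of it per cell cannot be told apart. Per kilobase of all exons it was the highest ligand in KO, at 15.5 CPM per kb. In WT its range of 9.70 to 11.2 CPM per kb lay inside that of Wnt5b, 9.20 to 11.7. The WT means were 10.55 CPM per kb for Wnt10b and 10.35 for Wnt5b. Per kb of the longest transcript Wnt10b was the highest ligand in WT as well, at 13.2 against 11.6 for Wnt5b.

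**Figure D3:**
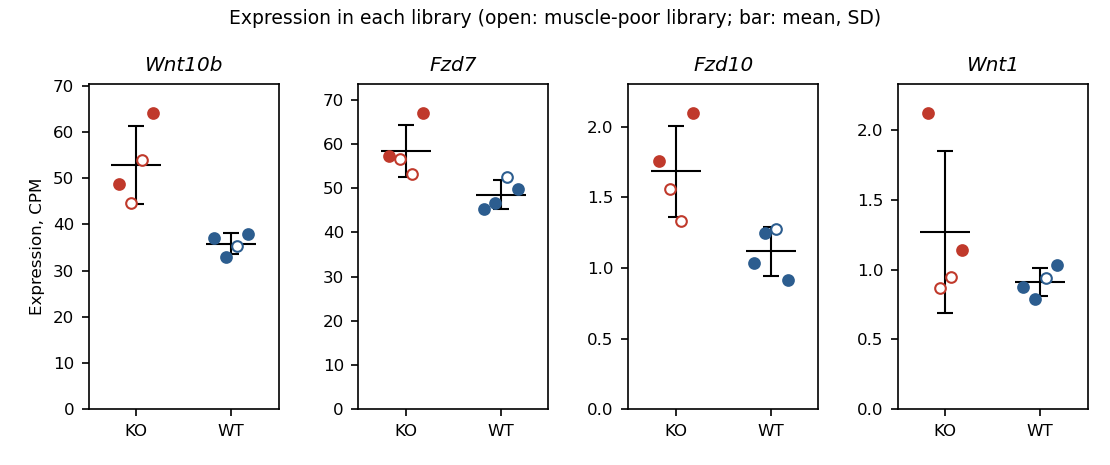
Expression in CPM of Wnt10b, Fzd7, Fzd10 and Wnt1 in each library, KO left of WT; the horizontal bar is the mean, the whiskers the SD (n = 4 each), and open points are the 3 muscle-poor libraries. The KO and WT libraries do not overlap for Wnt10b, Fzd7 and Fzd10, and they overlap for Wnt1, where KO replicate 1 stands alone at 2.12 CPM.

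The size of the Wnt10b difference was steadier than its call. It ran from 0.46 to 0.64 on the log2 scale over the 8 fits that left out 1 library. The call was lost without KO replicate 3 (edgeR adjusted p = 0.0784) and without WT replicates 2, 3 or 4 (adjusted p = 0.0895, 0.0739 and 0.0529). Without the 3 muscle-poor libraries the log2 change was 0.65 with an adjusted p of 0.188, in a fit of 2 KO and 3 WT libraries that called 8 genes in all. With the muscle markers as a covariate it was 0.56 (adjusted p = 0.0211), and with the epidermis markers 0.55 (adjusted p = 0.00813). These 2 fits called 330 and 552 genes in all, against 234 without a covariate. Skin is a tissue in which Wnt10b is known to be expressed. The 14 epidermis and hair follicle markers summed to 5.93 to 10.99 CPM in KO libraries and 6.65 to 8.34 CPM in WT libraries, highest in KO replicate 4. Of the 4 above the filter, which made the covariate, 1 had a log2 change above 0 and 3 below. Of 8 suture mesenchyme markers, Gli1, Zic1 and Axin2 were higher in KO and Prg4 lower in edgeR, 6 of 8 had a log2 change above 0, and their sum was 749 to 807 CPM in KO libraries and 688 to 767 CPM in WT libraries. Of the 10 osteoblast markers Bglap was lower in KO and the other 9 did not pass. The part of skin, muscle, suture, osteoblast, macrophage and osteoclast cells in the Wnt10b result was not tested.

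**Figure D4:**
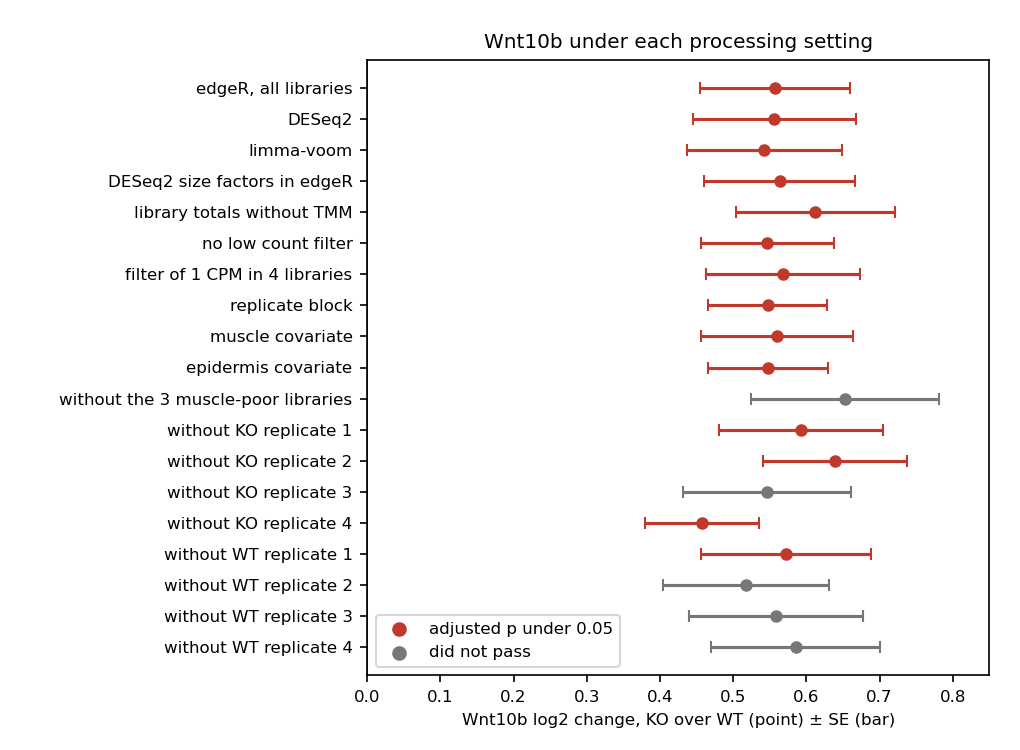
Wnt10b log2 change, KO over WT (point), with its standard error (bar) in the edgeR fit of all libraries and in 18 alternatives; red marks an adjusted p under 0.05. The change lies between 0.46 and 0.65 throughout, and 5 of the 18 alternatives lose the call.

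The next Wnt gene lies close by. Wnt10b and Wnt1 stand head to head on chromosome 15, with their annotated starts 11.7 kb apart. Wnt1, a canonical ligand mutated in a human brittle bone disease, was named here for that position. It held 2.12, 0.869, 0.949 and 1.14 CPM in the KO libraries, against 0.877, 0.793, 0.939 and 1.04 CPM in the WT libraries. KO replicate 1 stood apart from the other KO libraries, and the groups overlapped (log2 change 0.48 ± 0.294, SE, edgeR adjusted p = 0.430). RefSeq promoters, which run from 250 bases before to 50 after the gene start on GRCm38.p6, were found for 29 of the 44 members; the RefSeq start of Fzd7 lies upstream of the GENCODE one. Those of the 2 neighbours are printed here because 1 of them carried the only call, and that of Fzd7 because it was the frizzled gene of smallest p; all are 5′ to 3′ on the strand of the gene, and capitals mark matches to the motifs described below.
Wnt10b, chr15:98778101-98778400, minus strand: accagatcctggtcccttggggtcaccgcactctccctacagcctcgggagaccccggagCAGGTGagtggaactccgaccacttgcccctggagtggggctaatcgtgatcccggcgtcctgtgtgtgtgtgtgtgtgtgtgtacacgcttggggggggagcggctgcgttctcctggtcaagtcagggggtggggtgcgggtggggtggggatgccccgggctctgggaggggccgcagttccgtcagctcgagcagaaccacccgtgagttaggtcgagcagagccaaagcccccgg
Wnt1, chr15:98789607-98789906, plus strand: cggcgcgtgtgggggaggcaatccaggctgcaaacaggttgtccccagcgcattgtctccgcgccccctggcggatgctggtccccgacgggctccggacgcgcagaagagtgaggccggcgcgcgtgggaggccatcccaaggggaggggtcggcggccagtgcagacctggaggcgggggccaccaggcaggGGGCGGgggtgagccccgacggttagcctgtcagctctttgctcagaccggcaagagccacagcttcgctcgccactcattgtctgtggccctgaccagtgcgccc
Fzd7, chr1:59481897-59482196, plus strand: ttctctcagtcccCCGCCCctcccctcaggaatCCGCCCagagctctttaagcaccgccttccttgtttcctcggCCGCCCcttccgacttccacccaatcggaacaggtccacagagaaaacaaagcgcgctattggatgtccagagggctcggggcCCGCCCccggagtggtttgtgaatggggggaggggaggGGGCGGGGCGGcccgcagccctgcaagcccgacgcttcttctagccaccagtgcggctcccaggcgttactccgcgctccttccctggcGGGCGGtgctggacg

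On either strand, the searched letters were CTTTGAT for TCF/LEF, TGTGGTT for RUNX, TGACTCA for AP-1, CACCTG for an E-box and GGGCGG for a GC box; matches may overlap. The Wnt10b promoter held 1 E-box and none of the others, the Wnt1 promoter 1 GC box, and the Fzd7 promoter 7 GC boxes. A GC box was present in 35.7% of all 32851 RefSeq promoters of this length and an E-box in 20.2%. Of the 32 promoters of members, 25 (78.1%) held a GC box, 8 (25.0%) an E-box, 2 each (6.25%) a TCF/LEF or an AP-1 match and none a RUNX match, against 3.73%, 5.20% and 5.27% of all promoters for the last 3 motifs in that order. The printed promoters were 66.3% (Wnt10b), 70.7% (Wnt1) and 66.7% (Fzd7) G or C, against a median of 52.7% over all. The 25 member promoters with a GC box belonged to 23 genes. G or C content was not worked out over the 32 member promoters, and its part in their GC box share was not tested.

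Among the other ligands of high level, none passed. Wnt9a, which takes part in joint and skeletal formation, had the next smallest p of the class and pointed the other way. It stood at 21.9, 23.2, 18.3 and 26.3 CPM in the KO libraries, against 28.3, 26.4, 27.9 and 23.05 CPM in the WT libraries. KO replicates 2 and 4 lay within the WT range and KO replicates 1 and 3 below it, so the groups overlapped (log2 change -0.23 ± 0.107, SE, edgeR adjusted p = 0.283). Wnt5b, a mostly non-canonical ligand, held 25.8, 23.8, 22.96 and 36.1 CPM in the KO libraries, against 26.2, 31.1, 24.4 and 28.2 CPM in the WT libraries. Its KO libraries spanned more than the whole WT range, from the lowest to the highest of the 8, and the change was -0.02 ± 0.137 (adjusted p = 0.962). Wnt5a, the ligand of Ror2 in cartilage and bone, held 47.2, 47.9, 48.5 and 39.4 CPM in the KO libraries, against 44.9, 42.5, 39.9 and 43.5 CPM in the WT libraries. Its KO replicate 4 was the lowest of the 8 libraries and the other 3 KO libraries the highest. It averaged 45.7 ± 4.28 CPM in KO and 42.7 ± 2.13 CPM in WT (SD, n = 4 each), with a fold of 1.07 and a 95% interval of 0.952 to 1.21; 4.58% of its exon bases overlap a gene on the opposite strand, and the strand setting of the counting is not given in the sources used here.

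The other 9 tested ligands lay between 0.132 and 1.92 CPM per kb in group means. They were, by falling level, Wnt2b, Wnt2, Wnt11, Wnt4, Wnt7b, Wnt1, Wnt10a, Wnt6 and Wnt16. Their log2 changes ran from -0.63 (Wnt16) to 0.62 (Wnt10a), with edgeR adjusted p from 0.292 to 0.833. Wnt16, which in mice is needed for thick cortical bone and is named here after its value was seen, held 0.628, 0.461, 0.813 and 0.408 CPM in the KO libraries, against 1.08, 0.745, 0.715 and 1.04 CPM in the WT libraries. KO replicate 3 lay among the WT libraries and the other 3 KO libraries lay below all of them (adjusted p = 0.292). Wnt2 and Wnt2b had the widest relative spread among WT libraries: Wnt2 ran from 2.04 to 4.57 CPM in KO and from 1.12 to 4.27 CPM in WT, and its 95% interval of 0.730 to 2.80 in fold was the widest of the members. The tandem pair Wnt6 and Wnt10a on chromosome 1, 6.19 kb apart, had changes of opposite sign, -0.46 ± 0.276 and 0.62 ± 0.330 (SE), and neither passed.

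Frizzled receptors, the docking sites of the ligands, all passed the filter on low counts, and none passed the test in edgeR. Of the 10, 7 had a log2 change above 0 (median 0.15) and 5 an unadjusted p under 0.05, all higher in KO: Fzd7, Fzd5, Fzd10, Fzd2 and Fzd8. Over all tested genes 49.9% had a change above 0 and 17.4% an unadjusted p under 0.05; with 10 genes the difference from these shares is a description. Fzd1, Fzd2 and Fzd7, which form a closely related subgroup, made up 61.2% to 67.8% of the frizzled sum per kb in KO libraries and 63.5% to 66.7% in WT libraries. Fzd7 (ENSMUSG00000041075, chromosome 1 from 59482424 to 59486955, plus strand, GRCm38/mm10) had the smallest p, at 57.3, 56.6, 53.3 and 67.0 CPM in the KO libraries, against 45.2, 46.6, 52.5 and 49.9 CPM in the WT libraries. The groups did not overlap, though KO replicate 3 and WT replicate 3, both muscle-poor, were close. The log2 change was 0.27 ± 0.0822 (SE, edgeR adjusted p = 0.130); DESeq2 called it (adjusted p = 0.0435).

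Fzd2 held 54.6, 53.0, 48.6 and 66.9 CPM in the KO libraries, against 48.0, 47.0, 45.2 and 49.1 CPM in the WT libraries. KO replicate 3 lay within the WT range and the other 3 KO libraries lay above it (log2 change 0.24 ± 0.0908, SE, edgeR adjusted p = 0.206). Fzd5 held 56.8, 57.1, 55.4 and 49.5 CPM in the KO libraries, against 46.1, 41.1, 51.6 and 47.9 CPM in the WT libraries. KO replicate 4 lay below WT replicate 3 and the other 3 KO libraries above every WT library (0.23 ± 0.0807, adjusted p = 0.177); 17.8% of its exon bases overlap Gm38058 on the opposite strand. Fzd1, the frizzled gene of highest level, pointed the other way and held 77.0, 79.5, 85.4 and 92.0 CPM in the KO libraries, against 86.1, 103, 88.7 and 94.96 CPM in the WT libraries. The groups overlapped (-0.16 ± 0.0793, adjusted p = 0.327). Fzd10, at the low end of the class and named after its values were seen, held 1.75, 1.56, 1.33 and 2.09 CPM in the KO libraries, against 1.03, 1.25, 1.27 and 0.911 CPM in the WT libraries. Every KO library lay above every WT library, KO replicate 3 by the least (0.59 ± 0.214, adjusted p = 0.187). The other 5, Fzd4, Fzd6, Fzd8, Fzd9 and Fzd3, were named after their values were seen and had log2 changes from -0.25 to 0.21. Fzd9, needed for normal bone formation in mice, was at 6.59 ± 0.881 CPM in KO and 6.49 ± 0.589 CPM in WT (SD, n = 4 each), with a fold interval of 0.838 to 1.23.

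The LRP co-receptors were abundant and none passed. Lrp4, which in bone holds the antagonist sclerostin and in muscle serves the nerve contact, was at 17.6 ± 1.65 CPM per kb in KO and 18.1 ± 2.20 CPM per kb in WT (SD, n = 4 each), and Lrp5 at 17.8 ± 1.67 CPM per kb in KO and 16.3 ± 2.00 CPM per kb in WT. The ranges of these 2 overlapped in both groups. Within a library, Lrp4 lay above Lrp5 in every WT library and in KO replicates 2 and 3, and below it in KO replicates 1 and 4. Per kb of the longest transcript Lrp4 averaged 23.3 in KO and 23.95 in WT, and Lrp5 19.5 in KO and 17.8 in WT. Per kb of all exons Lrp6 was at 10.2 ± 0.802 CPM per kb in KO and 9.21 ± 0.9403 CPM per kb in WT. Each of its libraries lay below every library of Lrp4 and Lrp5. Lrp5 held 197, 160.2, 166 and 169 CPM in the KO libraries, against 142, 142, 169 and 181 CPM in the WT libraries. The lowest 2 libraries were WT replicates 1 and 2 and the highest was KO replicate 1, and the groups overlapped (log2 change 0.13 ± 0.0964, SE, edgeR adjusted p = 0.521). Lrp6 held 144, 151, 138 and 125 CPM in the KO libraries, against 114, 117, 140.3 and 133 CPM in the WT libraries. It showed the same low pair of WT libraries, and KO replicates 3 and 4 lay within the WT range (0.15 ± 0.0868, adjusted p = 0.413). Lrp4 held 204, 181, 190.1 and 163 CPM in the KO libraries, against 176, 164, 209 and 210.3 CPM in the WT libraries, with the groups overlapping over most of their range (-0.04 ± 0.0974, adjusted p = 0.870; fold interval 0.839 to 1.13). Lrp4 was not lower in the muscle-poor libraries: these held 181 and 190.1 CPM in KO replicates 2 and 3 and 209 CPM in WT replicate 3, inside the range of the others.

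Of the receptors that mostly act without beta-catenin, none passed. Ryk, a Wnt-binding receptor with a kinase-like domain, held 163, 157, 178 and 162 CPM in the KO libraries, against 174, 185, 179 and 172 CPM in the WT libraries. KO replicate 3 lay within the WT range and the other 3 KO libraries below it (log2 change -0.10 ± 0.0660, SE, edgeR adjusted p = 0.444). Ror2, the Wnt5a receptor that is mutated in human limb shortening disorders, had the smallest p of the class and held 36.6, 31.3, 32.7 and 40.4 CPM in the KO libraries, against 27.6, 28.1, 29.9 and 32.7 CPM in the WT libraries. KO replicates 2 and 3, both muscle-poor, lay between WT replicates 3 and 4, and KO replicates 1 and 4 above them (0.25 ± 0.0913, adjusted p = 0.186). Its relative Ror1 held 9.98, 8.20, 7.59 and 8.27 CPM in the KO libraries, against 7.15, 6.73, 9.59 and 8.68 CPM in the WT libraries, with overlapping groups (0.08 ± 0.134, adjusted p = 0.797). Per kb of exon the order Ryk, Ror2, Ror1 held in every library, with no overlap between neighbours.

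R-spondins amplify Wnt signals. The summed level of these 4 genes was the lowest of the 7 classes, which differ in number of genes. Rspo3 by itself lay above 56.2% of all tested genes per kb of exon. Rspo3 led, at 4.09 ± 0.467 CPM per kb in KO and 4.39 ± 0.123 CPM per kb in WT, followed by Rspo1 at 1.88 ± 0.371 CPM per kb in KO and 1.53 ± 0.138 CPM per kb in WT and Rspo2 at 0.367 ± 0.0268 CPM per kb in KO and 0.456 ± 0.0688 CPM per kb in WT (SD, n = 4 each); no library of one overlapped a library of the next. Rspo1 held 2.90, 4.20, 3.14 and 4.30 CPM in the KO libraries, against 3.35, 2.86, 2.95 and 2.73 CPM in the WT libraries. KO replicates 2 and 4 lay above the WT range and KO replicates 1 and 3 within it (log2 change 0.29 ± 0.167, SE, edgeR adjusted p = 0.396). Rspo2 held 1.69, 2.00, 1.94 and 1.88 CPM in the KO libraries, against 2.77, 2.40, 1.92 and 2.24 CPM in the WT libraries. KO replicates 1 and 4 lay below every WT library, and the change was -0.31 ± 0.172 (adjusted p = 0.373). Rspo3 held 12.6, 14.6, 12.04 and 11.2 CPM in the KO libraries, against 14.0, 13.6, 13.5 and 13.1 CPM in the WT libraries. KO replicate 2 was the highest of the 8 libraries and the other 3 KO libraries the lowest (-0.10 ± 0.0928, adjusted p = 0.614); 13.1% of its exon bases overlap a gene on the opposite strand.

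Of the LGR receptors for R-spondins, Lgr4 carried 74.3% of the class sum per kb in KO and 72.5% in WT. Lgr4, which in mice takes part in bone formation and also binds RANKL, held 101, 91.3, 107 and 81.2 CPM in the KO libraries, against 82.4, 83.5, 92.3 and 80.0 CPM in the WT libraries. KO replicates 1 and 3 were above every WT library (log2 change 0.17 ± 0.0879, SE, edgeR adjusted p = 0.346). Lgr6 held 47.0, 30.5, 39.3 and 32.3 CPM in the KO libraries, against 32.1, 35.7, 42.9 and 35.2 CPM in the WT libraries, with overlapping groups (0.03 ± 0.136, adjusted p = 0.931). Lgr5, the stem cell marker of gut and hair follicle, held 1.19, 2.36, 0.791 and 1.55 CPM in the KO libraries, against 1.60, 1.32, 0.872 and 1.04 CPM in the WT libraries. Averaged over the 8 libraries it was the lowest tested member per kb of all exons, though in KO Wnt16 was lower (0.132 against 0.143). In CPM Wnt16 was lower in both groups. Per kb of the longest transcript Wnt16 was lower in KO (0.176 against 0.307) and Lgr5 in WT (0.252 against 0.272). Both the highest and the lowest library of Lgr5 were KO, and the groups overlapped (0.29 ± 0.320, adjusted p = 0.680).

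The genes that release the ligands did not pass either. Wls held 237, 237, 245 and 213 CPM in the KO libraries, against 239, 251, 254 and 233 CPM in the WT libraries. KO replicate 4 was the lowest and WT replicate 3 the highest, and the fold of 0.954 had a 95% interval of 0.860 to 1.06 (edgeR adjusted p = 0.660). Porcn, an X-linked gene, held 15.3, 15.6, 14.8 and 18.3 CPM in the KO libraries, against 17.2, 16.6, 19.0 and 19.1 CPM in the WT libraries. KO replicates 1, 2 and 3 lay below every WT library and KO replicate 4 within the WT range (log2 change -0.17 ± 0.0896, SE, adjusted p = 0.354).

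Another 7 members lay below the filter, and 6 of them are ligands. Wnt3, Wnt3a, Wnt7a, Wnt8a, Wnt8b and Wnt9b each held 0 counts in at least 1 library, and 3 counts corresponded to at most 0.0848 CPM. Wnt8b, Wnt3 and Wnt7a reads came mostly from a single library each. Wnt8b had 31 counts in KO replicate 4 and 0 in the other 7 libraries, and Wnt3 had 29 counts in KO replicate 4, 3 in KO replicate 1 and 0 in KO replicates 2 and 3, against 7, 1, 1 and 0 in WT. Wnt7a had 19 counts in WT replicate 1 and at most 2 in any other library. That library also had the highest sum of 14 markers of neurons and brain glia, at 82.2 CPM, against 37.3 to 51.3 CPM in KO libraries and 38.8 to 41.5 CPM in the other WT libraries; the part of such tissue in the Wnt7a counts was not tested. Wnt3a held at most 3 counts, Wnt8a at most 2 and Wnt9b at most 4 in any library, so their expression was at the limit of this depth.

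Rspo4, known for its role in nail growth in humans, was found in all 8 libraries at 5, 4, 4 and 3 counts in KO and 7, 5, 7 and 6 counts in WT. In CPM of library totals it averaged 0.0890 ± 0.0132 in KO and 0.137 ± 0.0209 in WT (SD, n = 4 each). All KO libraries lay below all WT libraries, with a two-sided exact permutation p of 0.0286, the smallest that 4 against 4 allows. Adjusted over the 7 members below the filter it was 0.20 and did not pass.

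Further along the pathway 5 of 87 tested genes passed (5.75%), 2 higher and 3 lower in KO, from 5 lists of 92 genes drawn up with earlier results of these data known. Against 1.32% of all tested genes this is a description and no test of the lists. Of 15 tested extracellular antagonists 1 rose and 1 fell in edgeR: Dkk1, which blocks Lrp5 and Lrp6, at 80.1 ± 6.24 CPM in KO and 54.7 ± 5.74 CPM in WT (SD, n = 4 each; edgeR adjusted p = 0.0124), and Sfrp4, a decoy that binds Wnts, at 72.3 ± 8.01 CPM in KO and 141 ± 28.4 CPM in WT (adjusted p = 0.0120). Of 13 feedback and target genes, Axin2, a scaffold of the beta-catenin destruction complex that Wnt signalling induces, rose, at 14.1 ± 2.44 CPM in KO and 8.94 ± 0.598 CPM in WT (adjusted p = 0.0231). Ccn5, a secreted matricellular protein gene, fell, at 38.5 ± 5.85 CPM in KO and 64.2 ± 9.24 CPM in WT (adjusted p = 0.0181). In that list 9 of 13 had a log2 change above 0 (median 0.12), and 7 had an unadjusted p under 0.05, against 49.9% and 17.4% of all tested genes.

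Of 24 non-canonical and polarity genes 1 fell, Nfatc2, a transcription factor activated by calcineurin, at 9.46 ± 0.542 CPM in KO and 18.9 ± 2.41 CPM in WT (SD, n = 4 each; edgeR adjusted p = 0.000870). None of the 25 canonical transducers and nuclear factors was called by edgeR, with 3 below an unadjusted p of 0.05, nor by DESeq2. EdgeR called none of 10 other surface modulators, with 4 below an unadjusted p of 0.05, and DESeq2 called 1 of them, Sdc4. The median log2 changes of these 3 lists were 0.06, 0.07 and 0.00430. DESeq2 called all 5 genes that passed in edgeR and also the antagonists Dkk2 and Sost, the target Cd44 and the non-canonical genes Prickle3 and Nfatc1. Of the genes to which it gave an adjusted p, it called 4 of 15 antagonists, 3 of 12 targets and 3 of 23 non-canonical genes. The same count was 1 of 9 for surface modulators and 0 of 25 for transducers, against 7.06% of all genes. This is a description and no test of the lists. Several of these calls were lost when 1 library was left out or the tool was changed. The fits without 1 library called 57 to 608 genes in all, against 234 with all 8. The part of the smaller number of libraries in these losses was not tested. The Dkk1 call was lost without WT replicate 2 (adjusted p = 0.0509). The Axin2 call was lost without KO replicates 2 or 3 or any 1 WT library (adjusted p up to 0.0719), and with limma-voom on all 8 libraries (adjusted p = 0.0516). The Ccn5 call was lost without KO replicates 2 or 3 or WT replicate 4 (up to 0.0644), while Sfrp4 and Nfatc2 kept theirs in all 8 fits that left out 1 library. Without the 3 muscle-poor libraries none of the 5 passed.

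**Figure D5:**
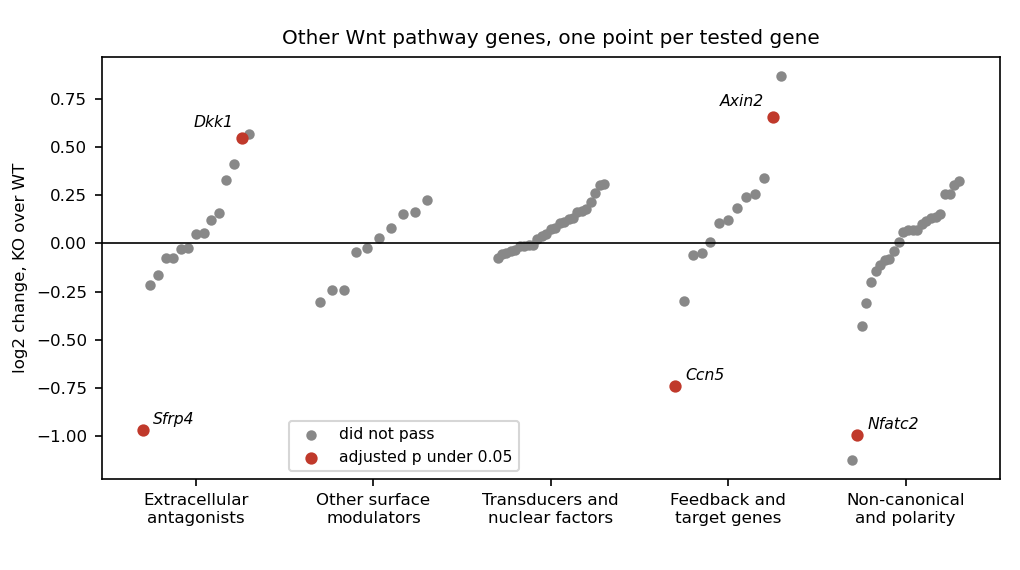
The log2 change, KO over WT, of each tested gene in the 5 lists of other Wnt pathway genes, 1 point per gene, ordered by size within a list; red marks an adjusted p under 0.05 (edgeR). The 5 red points are Dkk1 and Axin2 above 0 and Sfrp4, Ccn5 and Nfatc2 below it, and most grey points lie within 0.5 of 0.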

How the data were processed

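Raw counts per Ensembl gene ID for 8 libraries were taken from the table the authors deposited, with no normalization. Per the submitters' processing notes, bcl2fastq 2.17, STAR 2.5.2b and Subread 1.5.2 (featureCounts) were used with mm10; the sources used here give neither annotation release nor strand setting. Symbols, coordinates and exon lengths came from GENCODE M21 (49056 of 49315 IDs).

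Genes were kept with edgeR's filterByExpr (minimum count 10, total 15), scaled with TMM and tested by quasi-likelihood in edgeR 4.0.16 under R 4.3.3, with robust estimation, KO against WT, two-sided, after a test on simulated data. CPM divides counts by TMM-scaled library sizes. The SE of an edgeR log2 change was derived as its absolute value over the square root of the quasi-likelihood F statistic. Intervals of changes are 95% t intervals from that SE, with the degrees of freedom of the fit. Alternatives used DESeq2 1.42.0, limma-voom 3.58.1, other scalings, filters, covariates and subsets. 3 counts is the floor, and it covers counting error only. P-values measure the spread between these samples. Replicates of a group differed beyond counting noise (chi-square per degree of freedom 9.23 to 45.2).

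The members and lists were chosen with earlier results of these data known. Values in every library are given, by rule, for members that passed, the 3 of highest level per length and the 2 of smallest p in each class; others named are said to be chosen after their values were seen, or for their position or known role. No columns were left out. Figures were drawn with matplotlib 3.10.9.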

Additional observations from a re-analysis of the deposited data

Results flagged for a closer look

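In 4 of 74 groups of 4 libraries 1 library stood far from the other 3, where chance gives about 3.7. Wnt5a was at 39.4 CPM in KO replicate 4, against 47.2 to 48.5 CPM in the other KO libraries. Fzd4 was at 49.2 CPM in KO replicate 1, against 34.7 to 35.4 CPM in the other KO libraries. Wnt7b was at 5.22 CPM in WT replicate 4, against 3.94 to 4.02 CPM in the other WT libraries. Fzd9 was at 5.61 CPM in WT replicate 3, against 6.77 to 6.82 CPM in the other WT libraries.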

How the results depend on the processing

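Over 18 alternatives the count of members called was 1 in 12, 2 with DESeq2 (Wnt10b and Fzd7) and 0 without the 3 muscle-poor libraries; leaving out 1 library gave 0 to 1. No called member changed sign. Of the 37 tested members 26 kept their sign in every alternative and 29 in every fit without 1 library. The count of all genes called was 234, and 355 with no low count filter, 982 with DESeq2, 552 with the epidermis covariate, 8 without the muscle-poor libraries and 57 to 608 without 1 library. The count of other Wnt pathway genes called was 5, and 11 with DESeq2, 9 with the epidermis covariate, 0 without the muscle-poor libraries and 3 to 7 without 1 library. The cause of these moves was not tested, beyond the smaller number of libraries. Deviations from the group mean in same-numbered KO and WT libraries correlated at -0.18 to 0.34. Other pairs of libraries were not compared, so these values do not settle whether the replicate number pairs samples. With the number as a replicate block 126 genes were called, Wnt10b among them (edgeR adjusted p = 0.0377), and 1 member in all.

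Levels depend on the length used. With the longest transcript in place of all exons, the class sums in KO and WT were 52.9 and 47.2 CPM per kb for ligands and 75.5 and 71.3 for frizzled receptors. They were 57.6 and 55.2 for LRP co-receptors, 64.1 and 66.6 for ROR and RYK and 24.7 and 22.4 for LGR. Porcn with Wls summed to 71.7 and 75.5, in WT above the frizzled receptors, and R-spondins to 6.78 in WT. The member of highest level was the same in all 7 classes, while Wls took the place of Ryk as the highest of all members.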

Other observations

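KO replicate 4 was the highest KO library for 15 of the 37 tested members (40.5%), Wnt10b, Fzd7, Fzd2 and Fzd10 among them, and for 32.8% of all tested genes. The other KO libraries were the highest for 10, 6 and 6 members. Among WT libraries the counts were 11, 6, 9 and 11. Of the pairs of Wnt genes that adjoin on the genome, Wnt3a with Wnt9a and Wnt9b with Wnt3 on chromosome 11 also stand head to head, and of these 4 genes Wnt9a was the one that passed the filter on low counts.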
